A study of Mus musculus with 8 samples.

Results

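The G protein alpha subunits that carry adrenergic signals inside brown fat cells were examined in brown adipose tissue of 3 wild-type (WT) mice and 5 mice whose arrays are labelled Abhd15 KO (KO-labelled arrays below), 1 mouse per array. The set was a list of 8 genes, the receptor genes Adrb1, Adrb3 and Adra1a and the alpha subunit genes Gnas, Gnai1, Gnai2, Gnai3 and Gnaq. Each gene was read from its brightest probe set that carries a single gene symbol. The platform annotation used here gave 5 of the 8 genes a probe set of their own, out of 22180 named genes, and these were the alpha subunits, with 1 probe set each. For Adrb1, Adrb3 and Adra1a no probe set was named, so the 3 receptors were not analysed here and the account is one of G protein alpha genes.

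All 8 mice were males on a C57BL/6J background, kept on normal chow, and their brown fat was taken after an overnight fast and 1 h of renewed feeding. Their age is given as 14 weeks in the design text, while the sample labels speak of up to 14 weeks on chow. The WT group carried no mutation per the labels. In the other group Abhd15, which encodes an alpha/beta hydrolase domain protein abundant in fat cells, is labelled as deleted, with the deleted part not given in the sources used here. The values were log2 signals from 1-colour Affymetrix Mouse Gene 2.0 ST arrays. Abhd15 itself has 2 probe sets of its own. The brighter one read 5.87 to 6.23 in the WT arrays and 5.68 to 6.35 in the KO-labelled arrays. By that probe set Abhd15 was not lower there, and the other probe set was not examined. A probe set outside the deleted part checks nothing, and every direction below rests on the labels. Of 14 brown adipocyte markers, 14 were above the dim limit of 2.88, and the uncoupling protein Ucp1 read 12.51 to 12.89 in the 8 arrays. Array medians lay between 3.00 and 3.04, and no litter, harvest day or scan date was given. Arrays give no read depth, and their small number limits the precision.

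Noradrenaline from sympathetic nerves drives heat production in brown fat. Beta receptors act through the stimulatory alpha subunit, which switches on adenylyl cyclase, raises cyclic AMP and so activates protein kinase A, lipolysis and uncoupling. Inhibitory alpha subunits, coupled to receptors for antilipolytic signals, restrain the same cyclase, and alpha 1 receptors act through the Gq class, which opens the phospholipase C and calcium branch. ABHD15 has been reported to bind phosphodiesterase 3B, which breaks cyclic AMP down after insulin, so the comparison asks whether the upstream G protein genes differed in the mutant.

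The start regions of the genes are shown first because they show the sequence that precedes the measured genes. RefSeq promoter windows on GRCm38.p6 were found for 4 of the 5 measured genes, and the 250 bases before each start were read. Gnas, an imprinted locus known for several alternative first exons, had 4 windows, whose starts spread over 45686 bases. The sources used here do not say which of these transcripts the Gnas probe set reads. Capitals mark GGGCGG (the GC box), TGACG (the core letters of cyclic AMP response elements) and CCAAT, each on either strand. The windows of Gnai1 (chr5:18360414-18360663, minus strand), Gnai3 (chr3:108146153-108146402, minus strand) and the start of Gnas farthest along its strand (chr2:174329756-174330005, plus strand) read 5′ to 3′ as follows.
Gnai1: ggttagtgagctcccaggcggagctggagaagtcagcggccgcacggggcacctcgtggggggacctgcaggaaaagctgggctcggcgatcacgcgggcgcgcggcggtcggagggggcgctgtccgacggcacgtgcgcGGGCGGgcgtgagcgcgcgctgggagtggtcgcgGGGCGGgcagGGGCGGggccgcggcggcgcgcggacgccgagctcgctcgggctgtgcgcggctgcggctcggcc
Gnai3: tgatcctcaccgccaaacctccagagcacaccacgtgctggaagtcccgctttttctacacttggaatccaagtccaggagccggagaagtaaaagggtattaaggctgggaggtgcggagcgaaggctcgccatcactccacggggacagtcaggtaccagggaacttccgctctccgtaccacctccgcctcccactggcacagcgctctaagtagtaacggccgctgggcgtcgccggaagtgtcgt
Gnas: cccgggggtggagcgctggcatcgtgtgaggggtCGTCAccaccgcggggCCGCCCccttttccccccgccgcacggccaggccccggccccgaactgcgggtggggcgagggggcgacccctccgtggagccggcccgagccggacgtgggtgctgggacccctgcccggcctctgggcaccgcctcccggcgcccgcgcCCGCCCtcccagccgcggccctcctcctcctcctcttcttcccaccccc
The Gnai1 window held 3 GC boxes and 43 CpG dinucleotides at 79.2% G and C, against a median of 52.4% and 6 CpG over all 32851 windows. The Gnas window printed held 2 GC boxes and 1 TGACG at 80.0% G and C and is the richest of the 4. The other 3, at 61.6%, 63.2% and 63.2%, were closer to that of Gnai3. One of them held 1 GC box, and the remaining pair, which overlap, held TGACG and CCAAT and no GC box. The Gnai3 window, at 59.6% G and C, held none of the 3 motifs. The Gnaq window held 4 GC boxes and no TGACG. Over all windows of this length GGGCGG occurred in 32.7%, TGACG in 17.8% and CCAAT in 33.8%. A match is a description of letters and not a site.

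None of the 5 alpha subunit genes passed the test between the groups. With limma 0 of 13223 genes tested passed an adjusted p of 0.05 (0% called), and the adjusted p of each of the 5 was 0.9997. At an unadjusted p under 0.05 there was 1 of the 5, Gnai1, where 3.99% of all tested genes met that limit (528 genes) and 1.76% met it with a lower value in the KO-labelled arrays, as Gnai1 did. The groups did not overlap in 1 of the 5, Gnas, where 2.77% of all tested genes showed no overlap, and 1.19% did so with lower values in the KO-labelled arrays, as 0 of the 5 did. The median difference, KO-labelled arrays minus WT, was −0.01 log2 over the 5 genes and 0.01 over all tested genes.

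**Figure D1:**
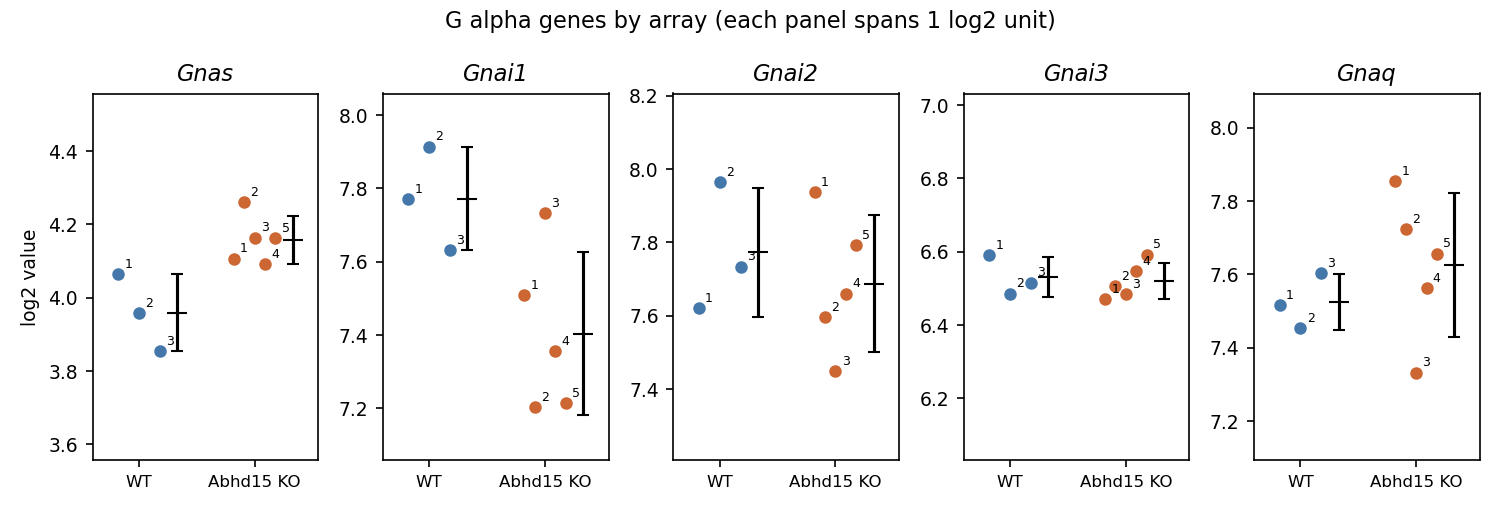
Values of the 5 G alpha genes on each array (y axis, log2 value; numbers beside points are replicate numbers; bars are mean and SD, 3 WT arrays and 5 KO-labelled arrays). In Gnas the 2 groups do not overlap, in Gnai1 4 of the 5 KO-labelled arrays lie below the lowest WT array, and Gnai3 stays between 6.47 and 6.59 in all 8 arrays.

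Gnas encodes the stimulatory alpha subunit that couples beta receptors to adenylyl cyclase. Its probe set (17380306) read 4.07, 3.96 and 3.85 in the WT arrays (replicates 1 to 3) and 4.11, 4.26, 4.16, 4.09 and 4.16 in KO replicates 1 to 5. Every array labelled Abhd15 KO was above every WT array, though the highest WT value and the lowest of the other group lay close together. The means were 3.96 ± 0.11 (SD, n = 3) and 4.16 ± 0.07 (SD, n = 5). The difference was 0.20 with a 95% confidence interval of −0.03 to 0.43 from limma, which is 1.15-fold with an interval of 0.979- to 1.34-fold. The exact two-sided permutation p was 0.0179, the smallest that 56 splits of the arrays allow, and the limma p was 0.0826 before and 0.9997 after adjustment. The probe set lay not far above the dim limit in any array, and its spread within groups (pooled SD 0.081) was as low as in 3.65% of tested genes. Its mean over all arrays was as low as in 28.4% of tested genes. Which Gnas transcripts it reads is not given, so these values cannot be assigned to the transcript of the stimulatory subunit. A probe set that the annotation gives to both Gnas and its antisense gene Gnasas1 (17395133) read 1.52 to 2.34 in the 8 arrays, below the dim limit in each, and says nothing about either transcript.

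Gnai1 encodes an inhibitory alpha subunit that restrains adenylyl cyclase. It read 7.77, 7.91 and 7.63 in the WT arrays (replicates 1 to 3) and 7.51, 7.20, 7.73, 7.36 and 7.21 in KO replicates 1 to 5. Replicate 3 of the KO-labelled group lay inside the WT range and the other 4 below it, so the groups overlap. The means were 7.77 ± 0.14 (SD, n = 3) and 7.40 ± 0.22 (SD, n = 5). The difference was −0.37 with a 95% confidence interval of −0.70 to −0.04, or 0.774-fold (0.615 to 0.974). The limma p was 0.0329 before and 0.9997 after adjustment, and the exact two-sided permutation p was 0.0714. Its probe set is 17445735.

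Gnai2, the inhibitory alpha subunit best known from blood and immune cells, differed less than its replicates spread. It read 7.62, 7.96 and 7.73 in the WT arrays (replicates 1 to 3) and 7.94, 7.60, 7.45, 7.66 and 7.79 in the KO-labelled arrays (probe set 17530955). Its highest values came from WT replicate 2 and KO replicate 1, one array of each group. These are the 2 arrays in which Angptl8, a gene that feeding induces, was lowest (7.95 and 7.90, against 10.42 to 10.81 in the other 6). The means of Gnai2 were 7.77 ± 0.18 (SD, n = 3) and 7.69 ± 0.19 (SD, n = 5), a difference of −0.09 with an interval of −0.40 to 0.23 (exact permutation p = 0.554). Leaving out WT replicate 2 made it 0.01.

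Gnai3, the third inhibitory alpha subunit, was the steadiest of the 5. It read 6.59, 6.49 and 6.52 in the WT arrays (replicates 1 to 3) and 6.47, 6.51, 6.49, 6.55 and 6.59 in the KO-labelled arrays (probe set 17409217). All 8 arrays lay within 0.12 log2. The pooled SD within groups was 0.051, a value as low in only 0.567% of tested genes. The means were 6.53 ± 0.05 (SD, n = 3) and 6.52 ± 0.05 (SD, n = 5), a difference of −0.01 with an interval of −0.22 to 0.20 (exact permutation p = 0.786). That interval leaves room for 0.856- to 1.15-fold.

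Gnaq encodes an alpha subunit that couples alpha 1 receptors to phospholipase C. It read 7.52, 7.45 and 7.60 in the WT arrays (replicates 1 to 3) and 7.86, 7.72, 7.33, 7.56 and 7.66 in the KO-labelled arrays (probe set 17357959). Replicates 1 and 3 of the KO-labelled group were the highest and the lowest of all 8 arrays, and the WT arrays lay between them. The means were 7.53 ± 0.08 (SD, n = 3) and 7.63 ± 0.20 (SD, n = 5), a difference of 0.10 with an interval of −0.20 to 0.40 (exact permutation p = 0.446). Without WT replicate 2 and KO replicate 1 together it was 0.01.

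The members were also compared with each other inside each array, as within-array log2 ratios over all 10 pairs of the 5 genes. The ratio of Gnas to Gnai1 was 0.57 higher in the KO-labelled arrays (SD 0.13 in WT, n = 3, and 0.25, n = 5; exact permutation p = 0.0357, adjusted 0.179 over the 10 pairs). Which Gnas transcripts the probe set reads is not given, so this is a ratio of probe sets and not of stimulatory to inhibitory subunit. The ratio of Gnas to the steady Gnai3 was 0.21 higher (SD 0.08 and 0.08; exact permutation p = 0.0357, adjusted 0.179). Gnai1 relative to its close relatives differed by −0.28 against Gnai2 (exact permutation p = 0.232, adjusted 0.332) and by −0.36 against Gnai3 (exact permutation p = 0.0893, adjusted 0.214). None of the 10 pairs passed after Benjamini-Hochberg adjustment. With 56 splits the smallest permutation p possible is 0.0179, so a lone pair could not have passed over 10 pairs. The adjusted values therefore cannot decide whether the subunits changed unequally.

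**Figure D2:**
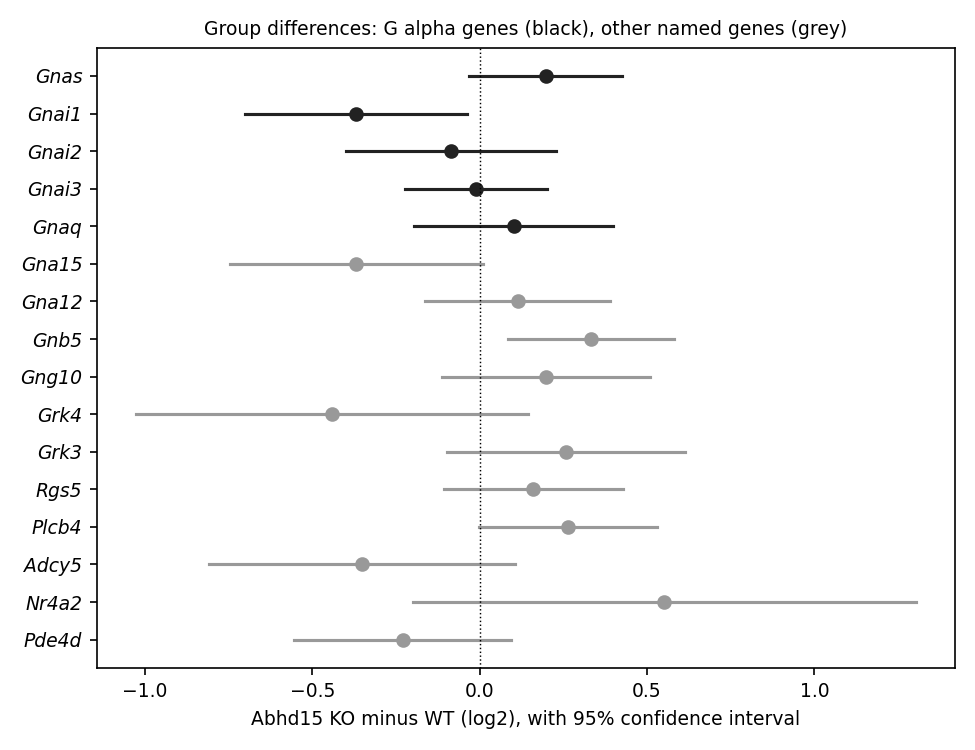
Differences between the KO-labelled arrays and WT (x axis, log2, with 95% confidence intervals from limma) for the 5 G alpha genes in black and for other named genes of the pathway lists in grey. Of the genes drawn, the interval lies below 0 for Gnai1 and above 0 for Gnb5, and none passed the adjusted threshold; Rgs12 is not drawn because it was below the dim limit in all 3 WT arrays.

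No covariation of the 5 genes from mouse to mouse was detected, and 8 arrays can miss a moderate one. With each group's mean taken out, Pearson's r over the 8 arrays ranged from −0.59 to 0.59 among the 10 pairs, and it was negative in 8 of them. The highest was Gnai2 with Gnaq (r = 0.59, permutation p over all pairings 0.115; rho = 0.36, permutation p = 0.389; r = 0.63 without the 2 arrays farthest out in Gnai2). The lowest was Gnai1 with Gnaq (r = −0.59, permutation p = 0.127; rho = −0.60, permutation p = 0.132), and it was 0.06 without the 2 arrays farthest out in Gnai1. The lowest adjusted permutation p over the 10 pairs was 0.547.

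Gnai1 varied between mice inversely to the mean of 14 brown adipocyte markers, though not to each of them. The mean of these 14 markers, centred over all 8 arrays, stood at −0.05, −0.05 and 0.05 in the WT arrays and at 0.00, 0.11, −0.27, 0.03 and 0.18 in the KO-labelled arrays. Replicate 3 of the KO-labelled group had the lowest marker mean and, in its group, the highest Gnai1, while replicates 2 and 5 had the highest marker means and the lowest Gnai1. With the group means taken out, r was −0.94 over 8 arrays (permutation p = 0.000372, adjusted p = 0.0149 over 40 relations of 5 genes with 8 marker lists), rho was −0.95 (permutation p = 0.00114, adjusted 0.0456), and r was −0.92 without the 2 arrays farthest out in the marker mean. With the group means left in, r was −0.72. Of the 14 markers 9 ran against Gnai1, Ucp1 the most (r = −0.93). The 5 that ran with it were Fabp4, the fatty acid binding protein of adipocytes (r = 0.71), Cidea (0.64), Adipoq (0.63), Zic1 (0.29) and Ebf2 (0.05). These r values of single markers are over 8 arrays and are given as a description. Leaving out Dio2 and Elovl3, the 2 markers of widest spread, r was −0.85 (permutation p = 0.00831) and rho −0.83 (permutation p = 0.0154). With the brown adipocyte mean as a covariate the group difference of Gnai1 was −0.33 (interval −0.57 to −0.09, limma p 0.0122 before and 0.9997 after adjustment). The marker relations, the narrowed list and that covariate were chosen after values were seen, and all use the same arrays. The p values of the narrowed list and of the covariate fit are therefore no separate check. Ucp1, Dio2 and Elovl3 are also on the list of cyclic AMP responsive genes given below. In tissue pieces, fewer cells of a type and less RNA per cell cannot be told apart.

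Gnai2 was set against fibroblast and macrophage markers in the same way, and of these relations the r with fibroblast markers passed adjustment, while its rho and both values with macrophage markers did not. The mean of 8 fibroblast markers peaked in WT replicate 2 (0.49) and KO replicate 1 (0.40), the arrays highest in Gnai2, and the other 6 arrays lay between −0.39 and 0.07. The mean of 15 macrophage markers was likewise highest there (0.46 and 0.30), with the other 6 between −0.54 and 0.10. With fibroblast markers r was 0.91 (permutation p = 0.00188, adjusted 0.0377) and rho 0.88 (permutation p = 0.00724, adjusted 0.0966), and r was 0.74 without the 2 arrays farthest out in the marker mean. With macrophage markers r was 0.82 (permutation p = 0.0153, adjusted 0.203) and rho 0.90 (permutation p = 0.00456, adjusted 0.0913), and r was 0.86 without the 2 farthest. Of the 40 relations 3 had an unadjusted permutation p under 0.05 for r, and they are the ones given here. All 8 fibroblast and all 15 macrophage markers were above the dim limit. With the macrophage mean as a covariate the group difference of Gnai2 was 0.01 (−0.27 to 0.29), and with the fibroblast mean −0.03 (−0.27 to 0.21).

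**Figure D3:**
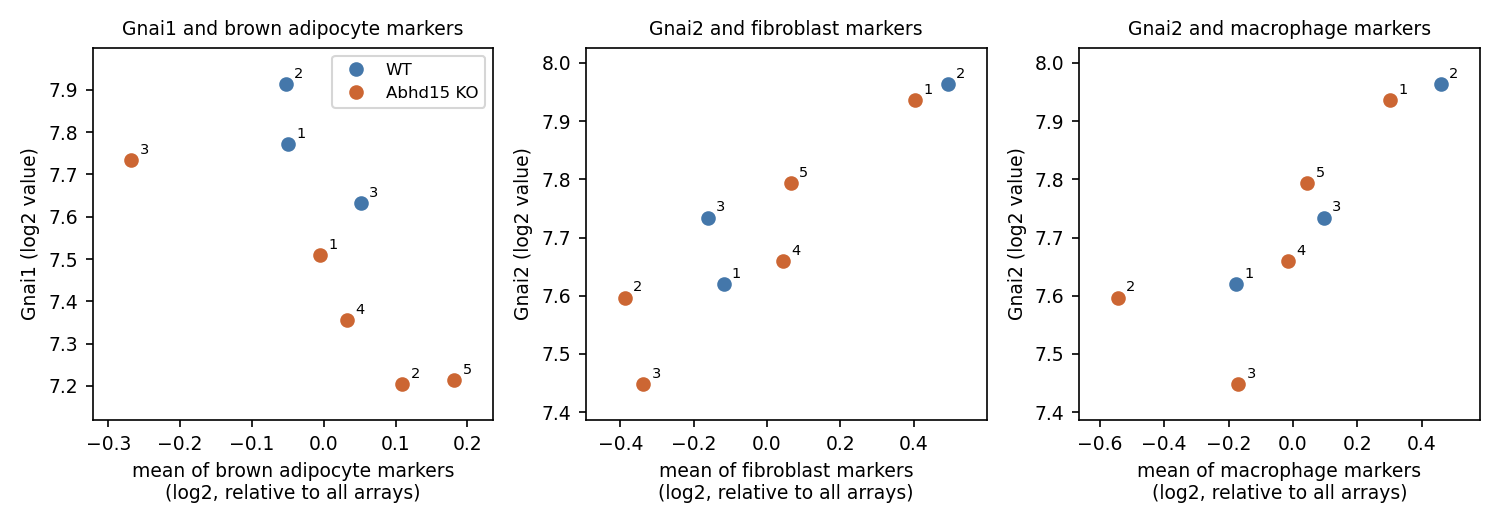
Gnai1 against the mean of 14 brown adipocyte markers, and Gnai2 against the means of 8 fibroblast and 15 macrophage markers (x axes, log2 relative to all arrays; y axes, log2 value; 1 point per array, numbers are replicate numbers, colours are the groups). Gnai1 runs downward within each group, and Gnai2 is highest in WT replicate 2 and KO replicate 1, where both marker means are highest.

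Marker lists of other cell types are given as counts and medians, with list means that overlap between the groups in each of them, and their part in the differences of the 5 genes was not tested beyond the covariates given. All 20 skeletal muscle markers were lower in the KO-labelled arrays (median −0.57), with list means from −1.05 to 1.63 in WT and from −1.67 to 0.87 in the other group. With the muscle mean as a covariate Gnai1 differed by −0.34 (−0.71 to 0.02) and Gnas by 0.20 (−0.06 to 0.46). Of the macrophage markers 12 of 15 were lower (median −0.18, list means −0.18 to 0.46 in WT and −0.54 to 0.30 in the other group). Of the fibroblast markers 7 of 8 were lower (median −0.13, list means −0.16 to 0.49 and −0.39 to 0.40). All 12 endothelial markers were higher (median 0.11, list means −0.22 to 0.06 and −0.16 to 0.25). Of 7 white adipocyte markers 3 were higher and 4 lower (median −0.30), and of the smooth muscle and pericyte markers 6 were higher and 4 lower (median 0.11). No marker passed the adjusted threshold. Among 9 Schwann cell and nerve markers 5 were dim, among them Th, Dbh and Npy, genes of sympathetic neurons, whose cell bodies lie outside the tissue.

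The genes most like each member in pattern were found by Pearson's r over the 8 arrays, with group means taken out, among 12149 other tested genes. For Gnai1 they were St3gal6, a sialyltransferase (r = 0.97), Adcy9, an adenylyl cyclase (r = 0.97), and Ivns1abp (r = 0.97). Adcy9 read 7.24 to 8.11 and differed between the groups by 0.17, the other direction from Gnai1. For Gnai2 they were Cyth4, an exchange factor for ARF GTPases found mainly in blood cells (r = 0.98), Dpy30 (0.97) and Tmem219 (0.97). For Gnas they were the kinase Wnk1 (r = 0.97), Mab21l2 (0.96) and Ormdl2 (0.95), for Gnai3 Cldn34b2 (0.99), Tatdn2 (0.99) and Caskin2 (0.98), and for Gnaq Fzd8, Itga6 and Bcl10 (r = 0.96, 0.96 and 0.95). These are the highest of many values over arrays that share tissue pieces and normalization, and are a description.

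Other adrenergic receptor genes gave no usable level. Of 6 others listed, 2 had a named probe set. Adra1b, an alpha 1 receptor, read 1.48 to 3.10 and was above the dim limit in 1 of 8 arrays, and Adra2c, an inhibitory alpha 2 receptor, read 1.62 to 2.87 and was above it in 0 arrays.

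Of 11 other alpha subunit genes 5 were tested and 6 were dim, among them Gnat1, Gnat2 and Gnat3 of light and taste receptor cells. Of the 5, 1 was higher and 4 were lower in the KO-labelled arrays (median −0.04), and 0 passed. Gna15, a Gq class subunit of blood cells, read 3.47, 3.56 and 3.87 in the WT arrays (replicates 1 to 3) and 3.54, 3.30, 3.01, 3.48 and 3.00 in the KO-labelled arrays, a difference of −0.37 (−0.75 to 0.01). The groups overlapped, and the values were close to the dim limit. Gna12, another alpha subunit gene, differed by 0.11 (−0.16 to 0.39). Gna11, the close relative of Gnaq, is named outside the rule and read 8.80 ± 0.21 in WT (SD, n = 3) and 8.73 ± 0.20 in the KO-labelled arrays (SD, n = 5), a difference of −0.07 (−0.41 to 0.27).

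Beta and gamma subunits, which hold the alpha subunit at the membrane and signal on their own once released, had 12 tested genes of 17 listed, 8 higher and 4 lower (median 0.06), and 0 passed. Gnb5, an unusual beta subunit that pairs with a subgroup of RGS proteins, read 5.16, 5.20 and 5.26 in the WT arrays (replicates 1 to 3) and 5.70, 5.53, 5.37, 5.46 and 5.63 in the KO-labelled arrays. The groups did not overlap. The difference was 0.33 (0.08 to 0.58), with a limma p of 0.0141 before and 0.9997 after adjustment. Of its 4 RGS partners tested, named here after their values were seen, 3 were higher and 1 was lower, each with an interval across 0. Rgs7 differed by 0.03 (−0.21 to 0.27), Rgs9 by 0.10 (−0.26 to 0.45), Rgs11 by 0.04 (−0.28 to 0.36) and Rgs6 by −0.23 (−0.69 to 0.23), with Rgs6, Rgs9 and Rgs11 near the dim limit. Gng10, a gamma subunit, differed by 0.20 (−0.11 to 0.51).

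Receptor kinases and arrestins, which silence activated receptors, had 6 tested genes, 4 higher and 2 lower (median 0.05), and 0 passed. The listed receptor kinase Grk2 had no named probe set and was not analysed. Grk3, a receptor kinase that binds released beta and gamma subunits, differed by 0.26 (−0.10 to 0.61) and Grk4 by −0.44 (−1.03 to 0.14), with Grk4 between 2.95 and 4.34 in the 8 arrays. Among genes that turn alpha subunits off or load them, 19 were tested, 10 higher and 9 lower (median 0.00), and 0 passed. Rgs12 was below the dim limit in all 3 WT arrays (2.61 to 2.70) and read 2.93 to 3.45 in the KO-labelled arrays, too close to the limit for a fold to be given. Rgs5, a marker of pericytes, differed by 0.16 (−0.11 to 0.43). Rgs2, an inhibitor of Gq that is named outside the rule, read 8.50, 10.32 and 9.21 in the WT arrays (replicates 1 to 3) and 9.77, 9.16, 9.01, 8.71 and 8.41 in the other group, highest in the same 2 arrays as Gnai2.

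Effectors of the alpha subunits, the adenylyl cyclases and beta class phospholipases C, had 11 tested genes of 14 listed, 6 higher and 5 lower (median 0.11), and 0 passed. The listed cyclase Adcy3 had no named probe set and was not analysed. Plcb4, a phospholipase C driven by Gq, read 6.91, 6.97 and 6.98 in the WT arrays (replicates 1 to 3) and 7.20, 7.30, 7.24, 6.96 and 7.39 in the KO-labelled arrays, a difference of 0.26 (−0.00 to 0.53; limma p 0.0519 before and 0.9997 after adjustment). Replicate 4 of the KO-labelled group lay among the WT arrays and the other 4 above them. Adcy5, a cyclase that inhibitory subunits restrain, differed by −0.35 (−0.81 to 0.10).

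Genes that cyclic AMP induces in brown fat stand downstream of these subunits. Of 15 tested, 12 were higher and 3 lower in the KO-labelled arrays, with a median of 0.15, where 51.7% of all tested genes were higher, and 0 passed. Nr4a2, an orphan nuclear receptor, differed by 0.55 (−0.20 to 1.30) and Pde4d, a cyclic AMP phosphodiesterase, by −0.23 (−0.56 to 0.09). Pde4d read 3.09 to 3.79 over all arrays, close to the dim limit. Dio2, the deiodinase that activates thyroid hormone, is named outside the rule. It read 5.57, 6.62 and 6.80 in the WT arrays (replicates 1 to 3) and 7.27, 7.10, 4.47, 7.42 and 8.32 in the KO-labelled arrays, a difference of 0.59 (−1.07 to 2.24). Replicate 3 of the KO-labelled group, the highest of its group in Gnai1, was the lowest of all in Dio2, and replicate 5 was the highest. Dio2 is also among the brown adipocyte markers set against Gnai1 above, so this is not a separate observation. The mean of this list ran from −0.21 to 0.05 in WT and from −0.18 to 0.38 in the other group, so the groups overlapped.

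**Figure D4:**
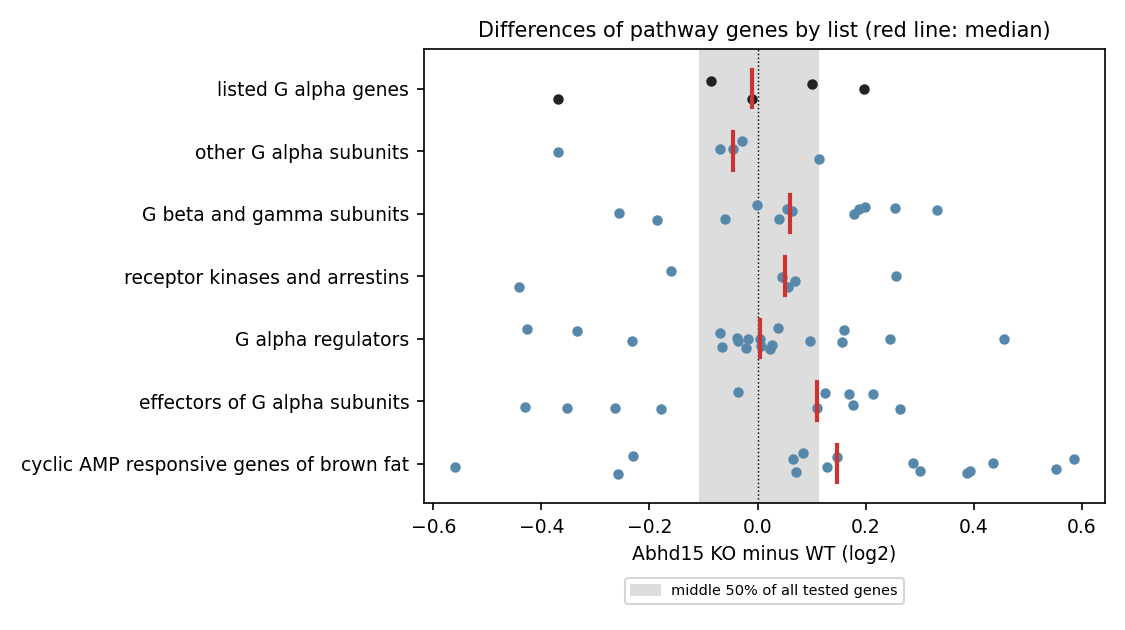
Differences between the KO-labelled arrays and WT (x axis, log2) of tested genes, 1 point per gene, grouped by pathway list (rows; red lines are medians; the grey band holds the middle 50% of all 13223 tested genes). List medians lie between −0.04 and 0.15, and that of the 5 G alpha genes at −0.01; some points belong to genes below the dim limit in a group.

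**Figure D5:**
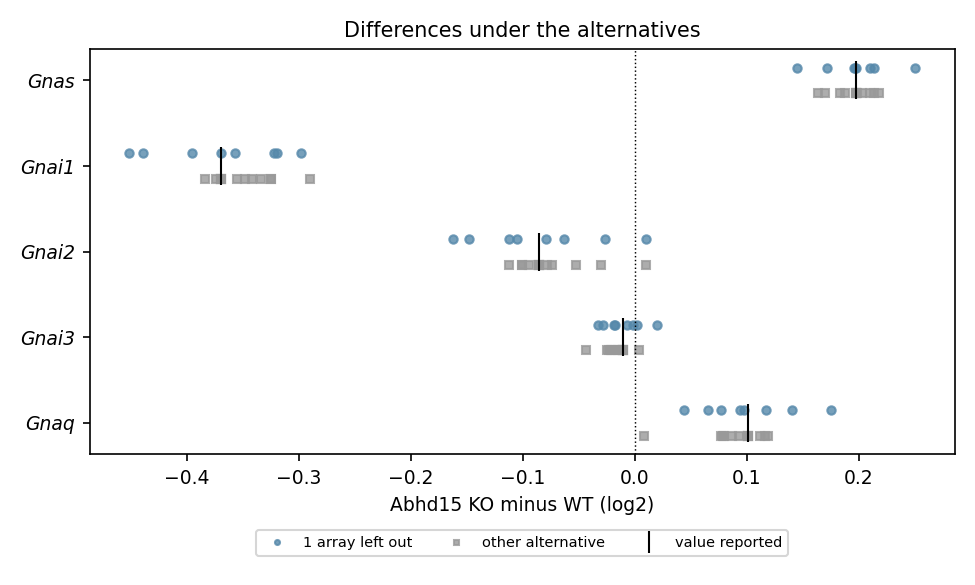
Group differences of the 5 G alpha genes (x axis, log2) as reported and under 21 alternatives, with circles for fits that leave out 1 array and squares for the others. Gnas stays above 0 (0.15 to 0.25) and Gnai1 below 0 (−0.45 to −0.29), while Gnai2 and Gnai3 lie on both sides of 0.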

How the data were processed

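Per the submitters' processing notes the deposited log2 values were made with RMA and oligo, no version given, and per the labels Expression Console was also used, so the program behind the table is not settled. RMA includes quantile normalization, which hides any shift common to most genes. Each array held 200 ng of total RNA of 1 mouse, and nothing says whether mice shared a litter.

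Of 41345 probe sets 23521 had 1 gene symbol, 1814 several (not used to name a gene) and 16010 none. Symbols were matched by Entrez identifier to a RefSeq table of GRCm38.p6 (23328 matched, 0 updated). The brightest probe set stood for a gene. The dim limit was the 95th percentile of 1400 olfactory and vomeronasal receptor probe sets, and 13223 genes exceeding it in 3 or more arrays entered limma 3.58.1 in R 4.3.3 (lmFit, eBayes, 1 group term, Benjamini-Hochberg over all of them). Intervals are not adjusted. Single values were compared over all 56 splits, two-sided. Correlations across arrays used all pairings of group-centred values.

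Members and lists were chosen with earlier results of these data known. The rule names all members, the 2 genes of lowest p of each pathway list, and the 3 genes most like each member. The marker relations, the narrowed brown adipocyte list, the ratios between members and 3 covariates (brown adipocyte, macrophage and fibroblast means) were chosen after values were seen. Pairings of group-centred values are only approximately exchangeable. The fits were tested on simulated data. Alternatives were the replicate block, dim filters, normalization, centring, variance model, array weights, probe set means, covariates and left-out arrays.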

Additional observations from a re-analysis of the deposited data

Results flagged for a closer look

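In the 5 arrays labelled Abhd15 KO, replicate 1 stood apart in Nr4a2, at 5.74 against 6.75 to 7.10 in the other 4. This array and WT replicate 2 (5.69) were the lowest of the 8 in Nr4a2. It was the 1 case among 17 genes checked, and chance gives such a gap in about 1 of 20 groups.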

How the results depend on the processing

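Under 18 planned and 3 added alternatives limma called 0 genes (422 to 1019 at an unadjusted p under 0.05), and none of the 5 G alpha genes passed. Gnas ranged from 0.15 to 0.25, Gnai1 from −0.45 to −0.29 and Gnaq from 0.01 to 0.17, each with 1 direction in all 21. Gnai1 had an unadjusted limma p under 0.05 in 12 of the 21. These include fits that hardly differ from the main one, such as the probe set mean, which gave the same difference. They also include the brown adipocyte and fibroblast covariates, chosen after values were seen. Among the rest, the limma p was 0.210 with the replicate block. It was 0.0708 without WT replicate 1 and 0.116 without WT replicate 2. Without KO replicates 2, 4 and 5 in turn it was 0.0688, 0.0578 and 0.0689. Leaving out WT replicate 3, KO replicate 1 or KO replicate 3 kept the limma p under 0.05 (0.0331, 0.0370 and 0.00823). Gnai2 turned to 0.0102 with the macrophage covariate, chosen after seeing the data, and to 0.0098 without WT replicate 2, and ranged from −0.162 to 0.0098 when 1 array was left out. Gnai3 turned to 0.0037 with the muscle covariate, to 0.0194 without WT replicate 1 and to 0.0018 without KO replicate 1, and ranged from −0.0331 to 0.0194 when 1 array was left out. With the replicate number as a block Gnai1 differed by −0.29 (−0.80 to 0.22), Gnas by 0.22, Gnai2 by −0.11, Gnai3 by −0.04 and Gnaq by 0.11, with 0 genes called (422 at an unadjusted p under 0.05). KO replicates 4 and 5 have no WT array of the same number, so these block differences rest on replicates 1 to 3 of each group. Same-numbered arrays did not deviate together over all tested genes (correlations −0.26, −0.10 and 0.02). These values gave no sign of pairing by number, but whether same-numbered mice shared a litter or harvest day was not tested. The median 95% half-width over all tested genes was 0.36 log2, and those of the 5 genes ran from 0.21 to 0.33.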
